A study of Mus musculus with 12 samples.

Results

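Chemokines of the CC family are small secreted proteins that draw leukocytes along a gradient, and macrophages are a main source of several of them. The RNA of 7 such genes, Ccl2, Ccl3, Ccl4, Ccl6, Ccl7, Ccl9 and Ccl24, was measured in mouse peritoneal macrophages. They were taken by symbol from the deposited count table, where all 7 were present among 12339 listed genes. The study compared 2 genotypes, wild type (WT) and meKO, on 2 diets, chow and a high-fat "Western" diet (HFD), giving 4 groups of 3 libraries each, called here by genotype and diet. Since the title of the series is about myeloid protein kinase C epsilon, the product of Prkce, meKO is taken to mean a knockout of Prkce in myeloid cells. The recombinase line is not given in the sources used here. All mice, the chow groups included, received AAV8PCSK9 at 8 weeks of age, a virus that lowers the LDL receptor in hepatocytes and with the HFD raises plasma cholesterol. After 4 weeks on the diets, cells drawn into the peritoneum by thioglycolate, a sterile irritant, were collected by lavage, so every group describes elicited macrophages in an irritated peritoneum. Each library title carries a number of its own, but the labels do not tie it to a single mouse, so p-values measure the spread between these libraries.

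The genes fall into groups by what they are known to do. Ccl2 (MCP-1) and Ccl7 (MCP-3) are ligands of Ccr2, the receptor through which inflammatory monocytes leave the bone marrow and enter tissue, and the Ccl2 axis is well known in atherosclerosis. Ccl3 (MIP-1 alpha) and Ccl4 (MIP-1 beta) are early products of stimulated macrophages, and Ccl3 acts on Ccr1. Ccl6 and Ccl9 are rodent chemokines with an extended amino terminus that act on Ccr1 and are abundant in macrophages and other myeloid cells. Ccl24 (eotaxin-2) is a ligand of Ccr3, the eosinophil receptor, and is known as a product of macrophages exposed to IL-4.

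6 of the 7 genes lie in the chemokine clusters of mouse chromosome 11 (GRCm38, GENCODE M21). Ccl2 (Entrez gene 20296) spans chr11:82035571-82037453 on the plus strand, and Ccl7 (20306) follows 8258 bases further on, at chr11:82045712-82047525, on the same strand. The next of the 7 genes on this chromosome begins 1525393 bases past Ccl7, in the other cluster. There Ccl9 (20308, chr11:83572919-83578636) and Ccl6 (20305, chr11:83587882-83593087) lie side by side on the minus strand, 9245 bases apart. Ccl3 (20302, chr11:83647844-83649355, minus strand) and Ccl4 (20303, chr11:83662584-83664683, plus strand) lie head to head, 13228 bases apart. Ccl24 (56221) stands alone on chromosome 5 (chr5:135569937-135573049, minus strand). The most exons in any annotated transcript are 3 in Ccl2, Ccl3, Ccl4 and Ccl7, and 4 in Ccl6, Ccl9 and Ccl24.

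Promoter sequences were found for Ccl9, Ccl6 and Ccl3 only, and are shown as the 250 bases before the start site in RefSeq (GRCm38.p6). Those of Ccl2, Ccl4, Ccl7 and Ccl24 were not found and so were not searched. The windows are chr11:83578637-83578886 for Ccl9, chr11:83593088-83593337 for Ccl6 and chr11:83649379-83649628 for Ccl3. All 3 are written 5' to 3' on the minus strand of the genome, and capitals mark every match to a searched motif.
Ccl9: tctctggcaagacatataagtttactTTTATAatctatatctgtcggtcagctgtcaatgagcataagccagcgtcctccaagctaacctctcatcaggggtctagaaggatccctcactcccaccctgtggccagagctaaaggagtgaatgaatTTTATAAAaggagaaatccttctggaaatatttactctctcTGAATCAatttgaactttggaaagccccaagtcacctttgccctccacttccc
Ccl6: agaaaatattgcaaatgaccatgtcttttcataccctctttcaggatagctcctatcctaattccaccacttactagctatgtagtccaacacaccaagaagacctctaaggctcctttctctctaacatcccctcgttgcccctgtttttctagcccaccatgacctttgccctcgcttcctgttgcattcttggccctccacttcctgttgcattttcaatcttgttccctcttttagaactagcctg
Ccl3: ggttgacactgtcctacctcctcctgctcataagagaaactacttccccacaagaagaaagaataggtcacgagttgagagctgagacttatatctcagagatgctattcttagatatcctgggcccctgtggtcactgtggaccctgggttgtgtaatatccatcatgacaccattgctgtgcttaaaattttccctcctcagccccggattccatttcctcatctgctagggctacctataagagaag
6 motifs were searched on both strands: kappaB (GGGA and CC with 4 bases between), AP-1 (TGANTCA), C/EBP (TTGCNNNAA), a STAT6-type site (TTC and GAA with 4 bases between), a GAS-type site (TTCNNNGAA) and a TATA box (TATAAA). Of these 3 windows, matches fell only in that of Ccl9. They were an AP-1 word, TGAATCA, at 53 to 47 bases before the start, and TATA words at 94 to 89 and 92 to 87, which overlap on opposite strands, and at 224 to 219 bases. Of all 32851 promoter windows of this length in the table, 17.6% held the kappaB word, 6.75% the AP-1 word, 8.29% the C/EBP word, 5.85% the STAT6-type word, 7.02% the GAS-type word and 12.4% the TATA word. A match is a run of letters and was not tested as a binding site.

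Libraries held 25844958 to 37282772 counts. Prkce, the targeted gene, was at 2.01 to 4.44 CPM (counts scaled to library size with TMM factors) in the 6 WT libraries and 0.950 to 1.78 CPM in the 6 meKO libraries, with no overlap. Macrophage markers were high in every library, with Adgre1 (513 to 697 CPM), Cd68 (2538 to 3658 CPM) and Csf1r (473 to 844 CPM) among them, and all 8 listed macrophage markers were measured. Lyz2, a lysozyme gene, was at 30482 to 53835 CPM in the 6 WT libraries, 16293 to 21310 CPM in 5 meKO libraries and 69.3 CPM in meKO chow 2. In WT chow 1 and 2, long transcripts were higher and short ones lower than the average over libraries: Spearman's rho across genes between transcript length and a library's deviation was 0.60 and 0.65 there, against -0.43 to 0.12 in the other 10. 6 of the 7 chemokine transcripts, all but Ccl9 (3006 bases), are among the shorter ones, with 660 to 1440 bases against a median of 3367.5, so differences of the 7 genes are set beside those from a fit with an offset that removes each library's smooth trend on length and GC content. For other genes the offset is given where it ends a call.

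Ccl6 and Ccl9 dominated the RNA of this group. Per kilobase of transcript, the mean over 12 libraries was 3838 CPM for Ccl6, 543 for Ccl9, 68.7 for Ccl3, 17.2 for Ccl4, 16.6 for Ccl2, 11.1 for Ccl7 and 3.97 for Ccl24. Ccl6 had the 15th and Ccl9 the 53rd highest mean CPM of all 12339 genes, and Ccl24 ranked 9267. The order Ccl6, Ccl9, Ccl3, then Ccl4 or Ccl2, then Ccl7 and Ccl24 was read between neighbours within each library: each neighbour stood above the next in 12 of 12 libraries, except that Ccl4 was above Ccl2 in 6 of 12. Ccl4 was above Ccl7 in 11 of 12, all but meKO HFD 3. Together the 7 genes took 0.589% to 0.853% of the counts of a library. The least counted values were 83 counts for Ccl7 and 86 for Ccl24, while Ccl6 never fell under 135468 counts, so counting error is small for Ccl6 and Ccl9 and larger for Ccl7 and Ccl24.

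The Ccr2 ligands were the most variable. Ccl2 was at 9.62, 11.1 and 16.3 CPM in WT chow, 11.8, 18.1 and 25.6 CPM in WT HFD, then at 18.6, 20.8 and 7.26 CPM in meKO chow, and 11.1, 41.2 and 27.1 CPM in meKO HFD (replicates 1 to 3 in each). Ccl7 was at 3.42, 5.32 and 9.06 CPM in WT chow, 5.57, 9.23 and 12.9 CPM in WT HFD, then at 6.90, 8.93 and 2.87 CPM in meKO chow, and 5.33, 23.3 and 14.3 CPM in meKO HFD. All 4 groups overlapped for both genes. Both were lowest in meKO chow 3 and highest in meKO HFD 2, a span of 5.67-fold for Ccl2 and 8.12-fold for Ccl7. The pooled within-group SD of log2 CPM was 0.72 for Ccl2 and 0.83 for Ccl7, larger than in 98.0% and 98.7% of all genes, whose median was 0.21.

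Of the early products of stimulated macrophages, Ccl3 varied less than Ccl4. Ccl3 was at 32.9, 41.8 and 51.7 CPM in WT chow, 51.0, 44.2 and 60.7 CPM in WT HFD, then at 57.1, 72.7 and 43.2 CPM in meKO chow, and 44.5, 76.1 and 55.3 CPM in meKO HFD. Ccl4 was at 4.41, 7.77 and 8.23 CPM in WT chow, 11.1, 10.8 and 15.2 CPM in WT HFD, then at 12.3, 16.8 and 5.81 CPM in meKO chow, and 10.03, 22.2 and 11.5 CPM in meKO HFD. For Ccl4 all WT HFD libraries stood above all WT chow libraries, while meKO chow overlapped the other 3 groups. The WT diet groups did not overlap, in either direction, for 39.3% of all genes. The within-group SD of log2 CPM was 0.34 for Ccl3 and 0.57 for Ccl4.

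The abundant Ccr1 ligands were steady between replicates. Ccl6 was at 4153, 4425 and 5338 CPM in WT chow, 5260.4, 5347 and 6429 CPM in WT HFD, then at 6426, 5973 and 5023 CPM in meKO chow, and 5646, 6811 and 5482 CPM in meKO HFD. Ccl9 was at 1405, 1136 and 1393 CPM in WT chow, 1419, 1695 and 2021 CPM in WT HFD, then at 1822, 1387 and 1332 CPM in meKO chow, and 2005, 2137 and 1828 CPM in meKO HFD. Within each genotype, every HFD library had more Ccl9 than every chow library, the nearest pairs being 1405 against 1419 CPM in WT and 1822 against 1828 CPM in meKO. Of all genes, 39.3% had diet groups without overlap in WT and 19.7% in meKO, in either direction. Across genotypes the ranges overlapped, since meKO chow 1 stood above 2 WT HFD libraries. The within-group SD of log2 CPM was 0.18 for Ccl6 and 0.21 for Ccl9, larger than in 36.8% and 48.4% of all genes, so their spread was ordinary.

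Ccl24 was the scarcest. It was at 3.65, 5.36 and 7.54 CPM in WT chow, 2.78, 3.99 and 4.30 CPM in WT HFD, then at 6.38, 7.22 and 3.49 CPM in meKO chow, and 3.50, 9.23 and 4.33 CPM in meKO HFD. All groups overlapped, and the within-group SD of log2 CPM was 0.55. The library meKO HFD 2 was the highest of the 12 for each of the 7 genes.

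**Figure D1:**
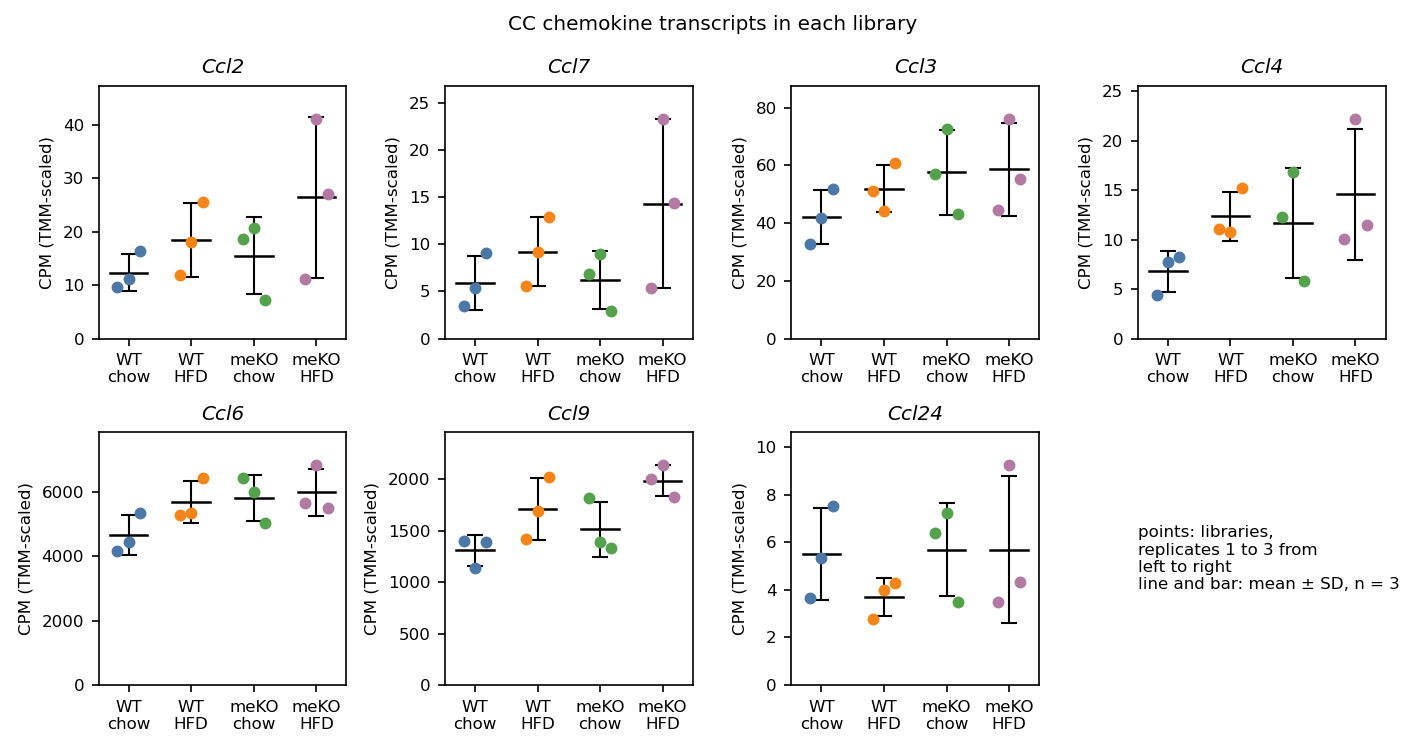
TMM-scaled CPM (vertical axis, from 0) of the 7 chemokine genes by group, with 1 point per library, replicates 1 to 3 from left to right, and the mean ± SD (n = 3). The points of Ccl2 and Ccl7 spread widest relative to their mean, those of Ccl6 and Ccl9 least, and meKO HFD replicate 2 is the highest point in every panel.

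High-fat diet was first compared with chow over both genotypes. Ccl9 was the single gene of the 7 to pass an adjusted p of 0.05, and it was higher on the diet. Its mean was 1412 CPM on chow and 1851 CPM on HFD, a log2 fold change of 0.39 ± 0.11 (SE; edgeR quasi-likelihood test, adjusted p = 0.0198 over all genes). In the same comparison 30.2% of all genes passed, 14.9% as higher, so 1 of 7 is not above the background. Taken by genotype, the Ccl9 difference was 0.38 ± 0.15 in WT (adjusted p = 0.0834) and 0.39 ± 0.15 in meKO (adjusted p = 0.269), or 0.29 ± 0.15 and 0.34 ± 0.15 with the offset, and the genotype by diet term was 0.0098 ± 0.22 (adjusted p = 0.991), in edgeR. The call rested on the setting. With the length and GC offset the change was 0.31 ± 0.11 (adjusted p = 0.0525). With the library's length slope as a covariate the adjusted p was 0.634, where 0.267% of all genes were called. Without WT chow 1 and 2 together it was 0.164, where 1.64% of all genes were called. Leaving out WT chow 2, WT HFD 3 or meKO chow 3 gave 0.0517, 0.0600 and 0.0550, while without meKO chow 2, the library low in Lyz2, it was 0.0404, and over these and all other alternatives the change stayed between 0.22 and 0.47. In a lavage sample, more RNA per cell and more cells of a type that makes it cannot be told apart.

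The other genes did not pass in that comparison. The log2 difference was 0.67 ± 0.36 for Ccl2 (adjusted p = 0.176), 0.91 ± 0.41 for Ccl7 (0.115), 0.59 ± 0.27 for Ccl4 (0.111), 0.17 ± 0.10 for Ccl6 (0.213), 0.16 ± 0.16 for Ccl3 (0.449) and -0.29 ± 0.26 for Ccl24 (0.404), all adjusted p from edgeR over all genes. 6 of 7 values were above 0, and their median was 0.39 against -0.025 over all genes. The offset for length and GC changed this picture: 4 of 7 values were then above 0, with a median of 0.14, and Ccl3 passed in the other direction at -0.28 ± 0.08 (adjusted p = 0.0289), in a comparison where 23.6% of genes passed, 11.2% as lower. Ccl6 also turned, to -0.13 ± 0.07, Ccl24 moved to -0.55 ± 0.22, and Ccl2, Ccl7 and Ccl4 shrank to 0.26 ± 0.28, 0.43 ± 0.30 and 0.14 ± 0.20. None of these passed. No direction of diet is therefore given for Ccl3 or Ccl6.

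**Figure D2:**
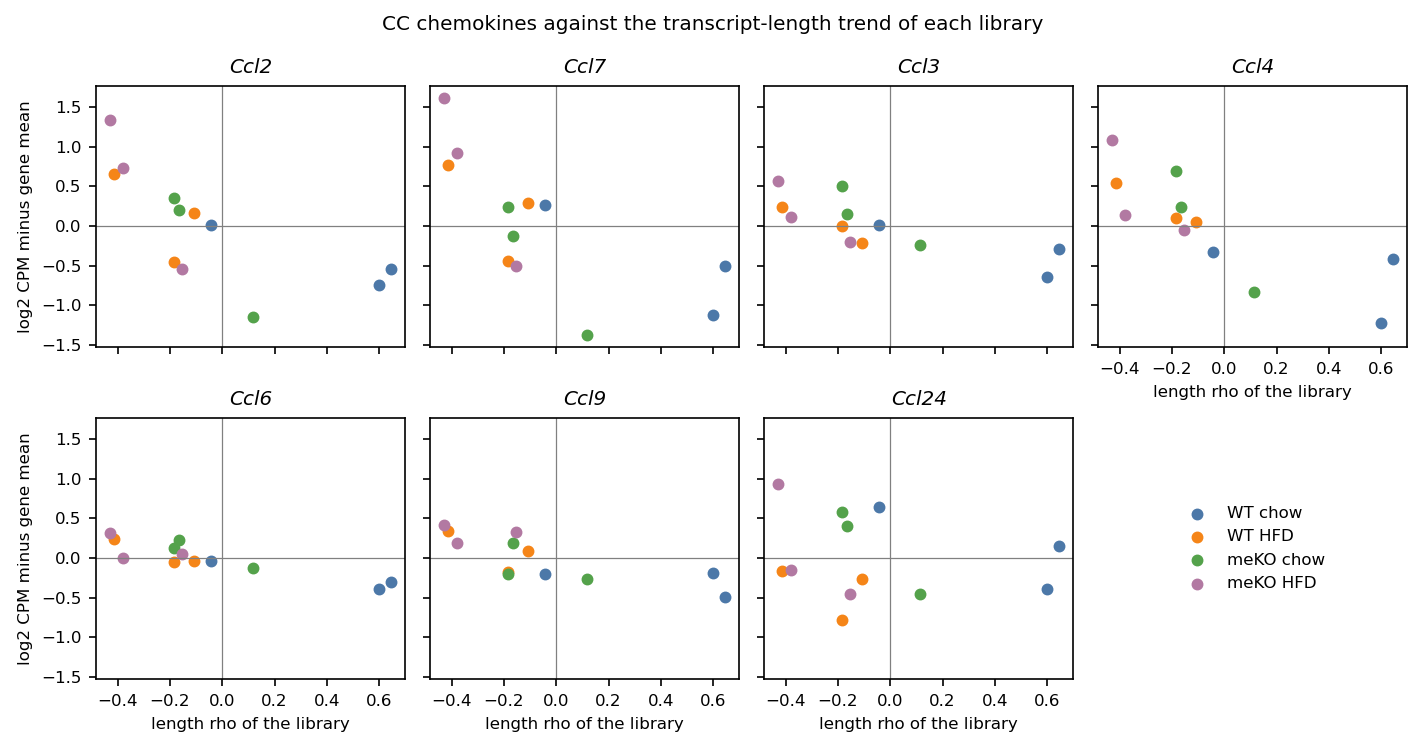
For each gene, log2 CPM minus the gene's mean over the 12 libraries (vertical axis) against each library's rank correlation of transcript length with deviation (horizontal axis), with 1 point per library, coloured by group. WT chow 1 and 2, at 0.60 and 0.65, lie below the gene's mean in every panel but that of Ccl24, where 1 of them lies above it.

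Within WT mice, 0 of 7 genes passed for diet in edgeR, DESeq2 or limma-voom, in a comparison where 21.3% of all genes passed in edgeR, and 2 had an unadjusted p under 0.05. Those were Ccl4, 6.81 ± 2.08 CPM on chow against 12.4 ± 2.48 CPM on HFD (SD, n = 3; log2 0.87 ± 0.38, edgeR adjusted p = 0.116), and Ccl9. These were also the 2 genes whose WT groups did not overlap, as was so for 39.3% of all genes. With the offset, the Ccl4 difference was 0.33 ± 0.29. Ccl24 was lower in mean, 3.69 ± 0.802 against 5.51 ± 1.95 CPM (SD, n = 3), with a log2 difference of -0.57 ± 0.37 (edgeR adjusted p = 0.265) that became -0.87 ± 0.31 (adjusted p = 0.0766) with the offset. Without the offset, Ccl24 is the gene whose mean was lower on HFD in WT while the other 6 means were higher. In WT the difference was 0.58 ± 0.51 for Ccl2, 0.64 ± 0.58 for Ccl7, 0.30 ± 0.23 for Ccl3 and 0.29 ± 0.14 for Ccl6, with adjusted p of 0.141 to 0.436 in edgeR. With the offset these were 0.10 ± 0.40, 0.094 ± 0.43, -0.25 ± 0.12 and -0.095 ± 0.10, so Ccl3 and Ccl6 were then also below 0.

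Within meKO mice, 0 of 7 passed for diet by the same 3 tools, against 0.105% of all genes in edgeR, and 1, Ccl9, had an unadjusted p under 0.05. Ccl9 was also the single gene whose meKO groups did not overlap, as was so for 19.7% of all genes. The largest difference was that of Ccl7, 6.23 ± 3.08 CPM on chow against 14.3 ± 8.99 CPM on HFD (SD, n = 3; log2 1.18 ± 0.58, edgeR adjusted p = 0.343), followed by Ccl2 at 0.76 ± 0.50 (0.463). Ccl3, Ccl6 and Ccl24 differed by 0.022 ± 0.22, 0.042 ± 0.14 and -0.015 ± 0.37, and Ccl4 by 0.31 ± 0.38. With the offset the meKO differences were 0.76 ± 0.42 for Ccl7, 0.42 ± 0.39 for Ccl2, 0.34 ± 0.15 for Ccl9, -0.32 ± 0.12 for Ccl3, -0.17 ± 0.10 for Ccl6, -0.040 ± 0.28 for Ccl4 and -0.23 ± 0.30 for Ccl24. The value for Ccl3 turned to -0.020 with library totals as the scaling. No gene of the 7 showed a genotype by diet term that passed (adjusted p of 0.836 to 0.991, with 0 of 7 at an unadjusted p under 0.05, where 0.0162% of all genes passed).

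The genotypes were then compared on each diet. On chow 0 of 7 genes passed in edgeR, DESeq2 or limma-voom, against 0.081% of all genes in edgeR, and on HFD again 0 of 7, against 0.081%. DESeq2 called more genes in all, 5.05% on chow and 0.43% on HFD, and limma-voom 0.0162% and 0.081%. Ccl6 on chow was the single gene at an unadjusted p under 0.05: 4638 ± 621 CPM in WT against 5807 ± 716 CPM in meKO (SD, n = 3), a log2 difference of 0.32 ± 0.14 (edgeR adjusted p = 0.231) that was 0.085 ± 0.10 with the offset. The chow differences of Ccl4 and Ccl3 were 0.78 ± 0.38 and 0.45 ± 0.23 (edgeR adjusted p of 0.272 and 0.273), and 0.45 ± 0.29 and 0.13 ± 0.12 with the offset. Ccl2, Ccl9, Ccl7 and Ccl24 differed by 0.34 ± 0.51, 0.21 ± 0.15, 0.083 ± 0.59 and 0.055 ± 0.37. All 7 chow values were above 0, with a median of 0.32 against -0.0012 over all genes, but Ccl24 turned to -0.010 with library totals, and Ccl24 and Ccl7 turned to -0.14 and -0.23 with the offset.

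On HFD the 7 differences ran from 0.074 ± 0.14 (Ccl6) to 0.63 ± 0.57 (Ccl7), with a median of 0.23 against 0.015 over all genes. Each had an edgeR adjusted p of 0.999. The difference was 0.61 ± 0.37 for Ccl24, 0.51 ± 0.50 for Ccl2, 0.23 ± 0.38 for Ccl4, 0.22 ± 0.15 for Ccl9 and 0.17 ± 0.23 for Ccl3. With the offset all 7 were still above 0, from 0.0072 ± 0.10 (Ccl6) to 0.50 ± 0.31 (Ccl24). Of all genes, 53.9% were above 0 without the offset and 49.6% with it. The library meKO HFD 2 was the highest for each of the 7 genes. Without meKO HFD 2, Ccl3, Ccl4 and Ccl6 turned to -0.069, -0.21 and -0.039, and with the offset Ccl4 turned to -0.12. Averaged over diets, meKO against WT gave 7 values above 0, with a median of 0.33 and adjusted p of 0.310 to 0.644 in edgeR, where 0.17% of all genes passed. In that comparison 51.8% of all genes were above 0. None of the 7 had groups without overlap in a genotype comparison, as 17.1% of all genes had on chow and 10.3% on HFD. Beside these comparisons, the neutrophil gene S100a9 was higher in meKO on both diets (log2 3.13 on chow and 2.15 on HFD, edgeR adjusted p of 0.00348 and 0.0229). Averaged over diets, 3 of the 7 neutrophil markers measured, of 12 listed, were higher in meKO (S100a9, Retnlg and Cxcr2, edgeR adjusted p of 0.000201 to 0.0280) and 0 lower. S100a9 was scarce, at 0.196 to 0.963 CPM in WT and 1.87 to 4.69 CPM in meKO, and Cxcr2 was at 0.165 to 1.01 CPM. Csf3r and Mmp8, with means of 88.0 and 49.6 CPM over the 12 libraries, were not called. The 7 markers, most of whose RNA was Csf3r and Mmp8, summed to 156 to 200 CPM in WT chow, 141 to 150 in WT HFD, 165 to 192 in meKO chow and 172 to 188 in meKO HFD. Ly6g, Mpo, Elane, Camp and Ngp, which define neutrophils and their precursors, were not among the listed genes, and the part of neutrophils in the chemokine values was not tested. The 2 chow groups each enter a diet and a genotype comparison, so these values are not independent of one another.

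**Figure D3:**
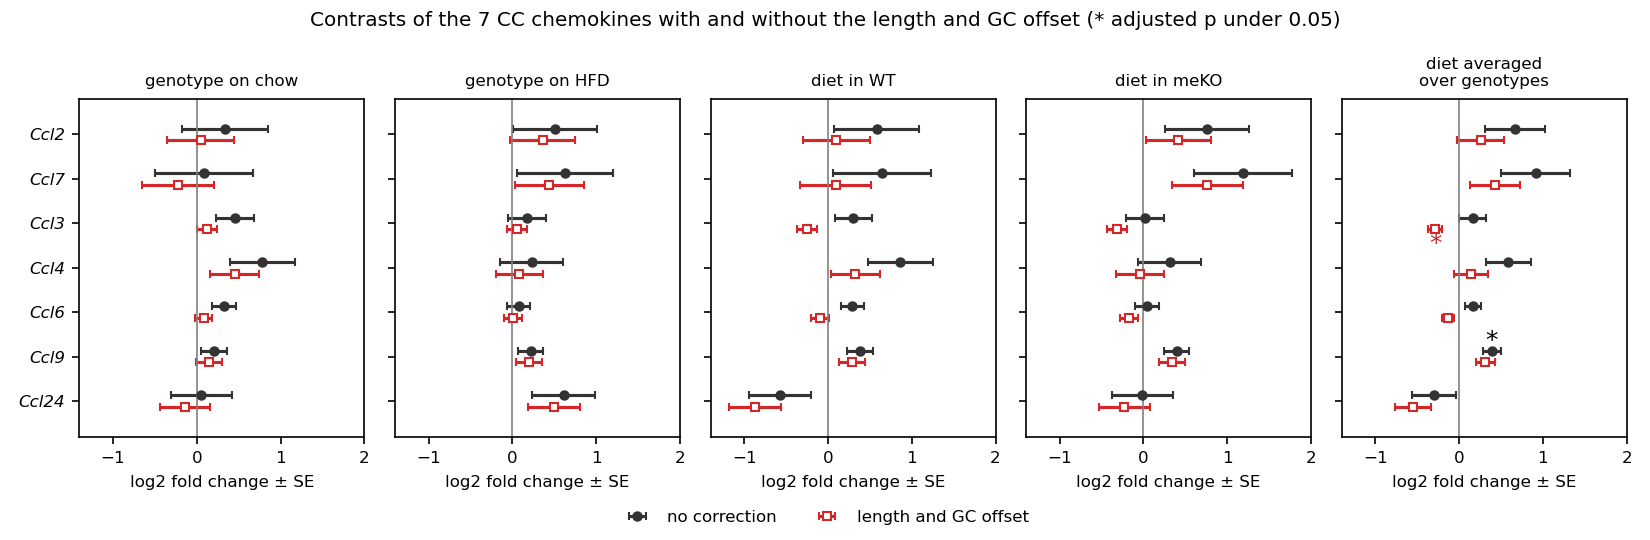
Log2 fold changes (points) with SE (bars) of the 7 genes in 5 comparisons, without correction (filled) and with the length and GC offset (open), where a star marks an adjusted p under 0.05. For diet averaged over genotypes, Ccl9 is starred without the offset (0.39) and Ccl3 with it (-0.28), and the values of Ccl3 and Ccl6 change sign.

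Ccl2 and Ccl7, which lie next to each other, varied together from library to library. Over the 12 libraries Pearson's r of log2 CPM was 0.978 (Spearman's rho 0.937) between Ccl2 and Ccl7, and 0.951 without the 2 libraries farthest from the Ccl2 median. Of the 12338 other genes, none had a higher r with Ccl2 than Ccl7, and none a higher r with Ccl7 than Ccl2. This order also held after the length and GC offset (r = 0.957), and for the offset values taken as deviations from the group means (r = 0.971). The ratio of Ccl2 to Ccl7 in CPM stayed within 1.77 to 2.81, while each gene spanned more than 5-fold. These correlations are descriptions over 12 libraries that share depth, scaling and the length trend.

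Ccl3 and Ccl4 gave r = 0.925 (rho 0.944), and 0.826 without the 2 farthest libraries. After the offset it was 0.469 over all libraries but 0.941 between deviations from the group means, where Ccl4 was the gene most like Ccl3 and Ccl3 the 3rd most like Ccl4. The ratio of Ccl3 to Ccl4 ran from 3.43 to 7.45. Ccl6 and Ccl9 gave r = 0.756 (rho 0.748), 0.748 without the 2 farthest libraries, 0.109 after the offset and 0.779 between offset deviations within groups. For Ccl6 this neighbour ranked 1798th of 12338 genes without the offset, below Ccl4 (r = 0.888) and Ccl3 (r = 0.876), 5092nd with it, and 101st between deviations. Their ratio in CPM ran from 2.82 to 4.31.

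Ccl24, on another chromosome, followed Ccl7, Ccl2 and Ccl4 within groups, and Ccl3 less closely. The r of offset deviations was 0.887 with Ccl7, 0.833 with Ccl2, 0.813 with Ccl4 and 0.609 with Ccl3. For Ccl24 these genes ranked 22nd, 126th, 182nd and 1196th of 12338. Without the offset, r within groups was 0.94, 0.90, 0.92 and 0.89 in the same order, and 0.87 with Ccl6. Over all libraries without the offset it was 0.595 with Ccl7, 0.628 with Ccl2, 0.514 with Ccl4 and 0.649 with Ccl3. After the offset, Ccl6 and Ccl9 shared little of this: their within-group r with the other 5 genes ran from -0.09 to 0.35. Over the 21 pairs, r without the offset ran from 0.128 (Ccl9 and Ccl24) to 0.978, with a median of 0.719, and the median was 0.389 with the offset, where 4 pairs were below 0. The library that was highest for every gene, meKO HFD 2, enters each of these values.

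**Figure D4:**
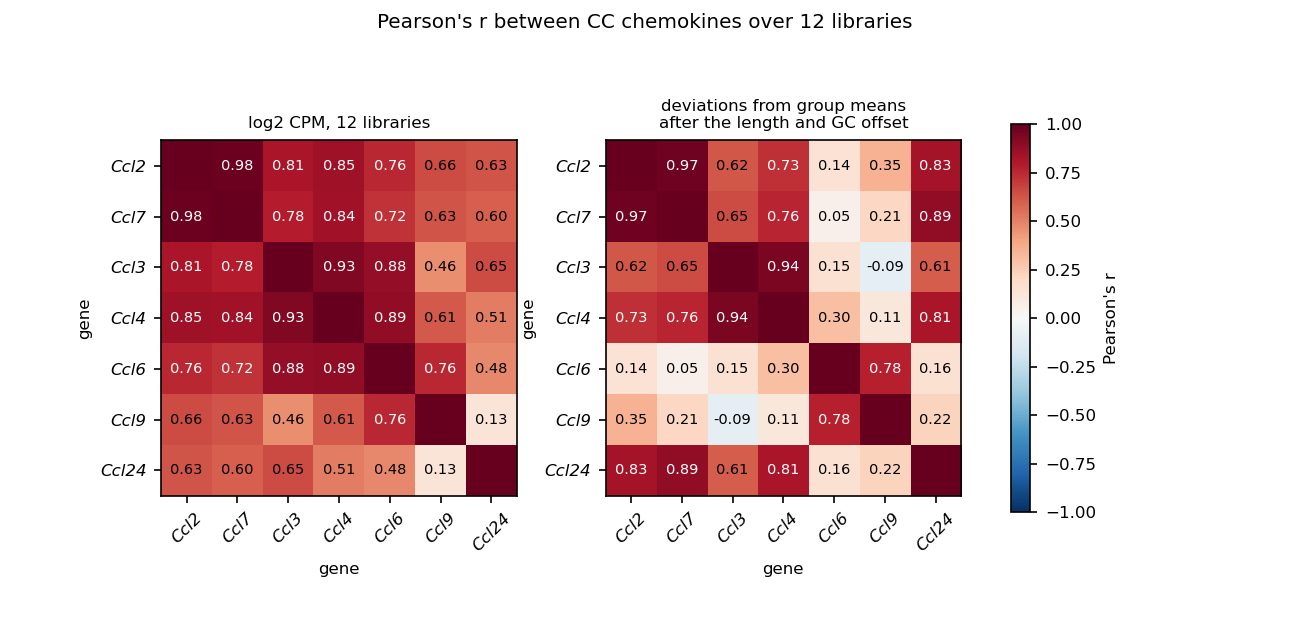
Pearson's r between the 7 genes over 12 libraries, from log2 CPM (left) and from deviations from the group means after the length and GC offset (right), coloured from -1 to 1. The pairs Ccl2 with Ccl7, Ccl3 with Ccl4 and Ccl6 with Ccl9 keep values of 0.971, 0.941 and 0.779 on the right, while the values of Ccl6 and Ccl9 with the other 5 genes run from -0.09 to 0.35 there.

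The genes most like each chemokine over the 12 libraries were listed by Pearson's r, without the offset. Ccl3 was followed most closely by Wfdc17 (r = 0.982, rho 0.972), which lies at chr11:83703991-83706268 in the same cluster, then by Prdx1 (0.955) and Gm21399 (0.949). For Ccl4 these were Pf4, another chemokine gene (0.954), Pon3 (0.951) and Mphosph6 (0.942). Ccl2 and Ccl7 had Gcat next after each other (0.933 and 0.938), then Pinx1 (0.926) for Ccl2 and Tcim (0.931) for Ccl7. Ccl6 had 0610010K14Rik (0.956), Mrps25 (0.951) and Ergic3 (0.945), and Ccl9 had Oaf (0.938), Adissp (0.930) and Tagln2 (0.926). Ccl24 had no gene above 0.868, the value of Emc8, followed by Btbd6 (0.838) and Gdf9 (0.788). Several of these, such as Wfdc17 (533 bases) and Pf4 (588 bases), have short transcripts like Ccl3 and Ccl4, and the part of the length trend in these values was not tested.

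The receptors were set beside their ligands. Ccr2, the receptor of Ccl2 and Ccl7, was at 236, 245 and 246 CPM in WT chow, 148, 164 and 167 CPM in WT HFD, then at 209, 148 and 233 CPM in meKO chow, and 210, 190 and 148 CPM in meKO HFD. Ccr2 fell in WT on HFD (log2 -0.60, edgeR adjusted p = 0.0231), where the groups did not overlap, and over both genotypes (-0.35 ± 0.11, adjusted p = 0.0300). In WT, 21.3% of all genes were called and 39.3% had groups without overlap, and over both genotypes 30.2% were called. The meKO chow and meKO HFD groups overlapped for Ccr2. The call over both genotypes held in 13 of 25 alternatives and was lost without any 1 of 7 libraries (WT chow 1 or 2, WT HFD 1 or 3, meKO chow 1 or 3, meKO HFD 3; adjusted p up to 0.0833) and with the offset (-0.27, 0.0984). The other 5 monocyte markers moved beside it: their summed level was 281 to 351 CPM in WT chow, 182 to 195 in WT HFD, 292 to 406 in meKO chow and 177 to 222 in meKO HFD. Most of that sum was F13a1, while Ly6c2 rose (0.94 ± 0.23, adjusted p = 0.0129), and the part of monocyte content in the Ccr2 result was not tested.

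Ccr1, the receptor of Ccl6 and Ccl9, ranged from 205 to 359 CPM and differed by 0.30 ± 0.11 between diets over both genotypes (edgeR adjusted p = 0.0568). Ccr3, the receptor of Ccl24, ranged from 8.32 to 42.3 CPM and differed by -0.50 ± 0.23 (adjusted p = 0.113). Beside Ccl24 and Ccr3, the other eosinophil markers measured, 3 of 6, summed to 11.7 to 33.2 CPM in WT chow, 7.99 to 12.5 in WT HFD, 9.99 to 26.2 in meKO chow and 11.01 to 19.7 in meKO HFD. The granule genes Epx, Prg2 and Ear6, which define eosinophils, were not among the listed genes, and the part of eosinophils in the Ccl24 values was not tested.

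Among other chemokines, 5 of 13 measured genes rose with diet over both genotypes, where 14.9% of all genes were called higher. Of 5 measured CC chemokines of 14 listed, 2 rose and 0 fell: Ccl5, an attractant of T cells and monocytes (0.73 ± 0.20, edgeR adjusted p = 0.0169), and Ccl8, another monocyte attractant (1.21 ± 0.36, 0.0257). The mean of Ccl8 was 3.87 CPM over the 12 libraries. Both calls were lost with the length and GC offset (0.40, adjusted p = 0.0921, and 0.66, adjusted p = 0.252), and that of Ccl8 also without WT chow 1, WT HFD 2, meKO chow 3 or meKO HFD 2 (up to 0.0718). Of 8 measured chemokines of the CXC, CX3C and XC classes, of 17 listed, 3 rose and 0 fell, and these 3 also passed with the offset: Cxcl12 (1.18 ± 0.25, adjusted p = 0.00834), a stromal chemokine, Cxcl16 (0.49 ± 0.11, 0.00882), a membrane-bound chemokine that also binds oxidised lipoprotein, and Cxcl14 (0.81 ± 0.18, 0.00947). Cxcl12 and Cxcl14 were scarce, with means of 0.949 and 1.93 CPM over the 12 libraries. With the offset another, Cxcl13, passed as lower (-0.93, 0.0424). Cxcl16 was also called in WT alone (0.57). Beside Cxcl12, mesothelial and fibroblast markers, 10 of 10 measured, summed to 51.8 to 91.1 CPM in WT chow, 94.2 to 139 in WT HFD, 52.0 to 95.7 in meKO chow and 111 to 139 in meKO HFD, and their part in the Cxcl12 result was not tested.

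Regulators known to act on chemokine promoters were examined in the same comparison, in which 30.2% of all genes passed. Of 22 measured NF-kB and AP-1 genes of 23 listed, 5 rose and 3 fell over both genotypes on HFD (5 and 1 with the offset). 4 AP-1 family genes, Junb (0.43 ± 0.08), Fos (0.66 ± 0.14), Atf3 (0.39 ± 0.08) and Jund (0.39 ± 0.10), rose with adjusted p of 0.00622 to 0.0138 in edgeR. Of 10 measured inflammatory genes of 14 listed, 3 rose and 0 fell: Il1rn, the interleukin-1 receptor antagonist (1.12 ± 0.19, adjusted p = 0.00444), Zfp36, which destabilises cytokine mRNA (0.30 ± 0.09, 0.0286), and Cd40, a costimulatory receptor (0.48 ± 0.16, 0.0355; with the offset 0.0507). Zfp36 and Cd40 held in 15 of 25 alternatives each, with adjusted p up to 0.0715 and 0.0975 when 1 library was left out. Of 11 measured genes of the IL-4 and STAT6 response, of 13 listed, 2 rose and 5 fell (1 and 5 with the offset). Among those that fell were the lectins Mrc1 (-0.69 ± 0.11, adjusted p = 0.00415), Clec10a (-0.54 ± 0.10, 0.00560) and Mgl2 (-0.72 ± 0.19, 0.0161). Klf4, a transcription factor, rose (0.65 ± 0.17, 0.0154), and so did Arg1 (0.63 ± 0.19, 0.0240), at a mean of 786 CPM over the 12 libraries. The offset ended the call of Arg1 (0.36, adjusted p = 0.203).

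In WT alone, where 21.3% of all genes passed, 3 NF-kB and AP-1 genes rose and 2 fell, 3 inflammatory genes rose, and 1 gene of the IL-4 and STAT6 response rose and 4 fell. With the offset these counts were 3 and 0, 1 and 0, and 1 and 4. Junb (0.60), Fos (0.86), Nfkbib (0.41), Il1rn (0.91), Zfp36 (0.44) and Cd40 (0.70) were among the genes that rose, and Nfkb1 (-0.51), Mrc1 (-0.86), Clec10a (-0.58), Mgl2 (-1.10) and Stat6 (-0.56) among those that fell, with edgeR adjusted p of 0.0106 to 0.0411. The offset ended the WT calls of Nfkb1 (adjusted p = 0.0531), Stat6 (0.0607), Cd40 (0.0614), Il1rn (0.0887) and Ccr2 (0.0752). Each of these 11 calls, and those of Ccr2 and Cxcl16, was lost without at least 1 library and held in 15 to 23 of 26 alternatives. In meKO on HFD, and between genotypes on chow and on HFD, 0 of the 63 measured genes of these 6 lists were called in edgeR, with 17, 9 and 9 at an unadjusted p under 0.05.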

How the data were processed

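RNA-seq libraries (TruSeq, total RNA extracted with Trizol, per the labels) were deposited by the authors as 1 table of raw counts for each gene in 12 libraries. Build mm10 and DESeq2 are named in the submitters' processing notes. The aligner, counter and strand setting are not given in the sources used here, so reads of overlapping genes cannot be separated. Columns were matched to samples by title, and replicate numbers only follow the order of the samples. Replicates differed by more than sampling noise (chi-square per degree of freedom at least 16.9). Counts were fitted with edgeR 4.0.16 in R 4.3.3 (TMM factors, filterByExpr, robust quasi-likelihood F test, 4 group means, all 12 libraries, two-sided) and a gene was called where its p, adjusted by Benjamini and Hochberg's method over all 12339 genes, was under 0.05. SE is the log2 fold change divided by the square root of F. Log2 CPM used a prior count of 2. The length and GC offset is a natural spline (4 degrees of freedom) of each library's deviation from the gene mean on transcript length and GC content (GENCODE M21), which 93.5% of genes had. The fit and the offset were tested on simulated data. Alternatives included DESeq2 1.42.0, limma-voom (limma 3.58.1), other scalings and filters, and leaving out each library, and 2 were chosen after seeing the data: WT chow 1 and 2 left out together, and the offset without meKO HFD 2. The 7 genes, the lists and the alternatives were chosen with earlier results of these data known. By rule the text names the 7 genes, up to 4 called genes per list and comparison with the smallest p, the receptors Ccr1, Ccr2 and Ccr3, and the 3 genes with the highest r to each chemokine. F13a1, Ly6c2, S100a9, Retnlg, Cxcr2, Csf3r, Mmp8, Cxcl13, Arg1 and Wfdc17's position are named in addition, having been chosen after their values were seen. Results on an item withheld for evaluation are not reported here.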

Additional observations from a re-analysis of the deposited data

How the results depend on the processing

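Over 26 settings, 1253 alternative values were computed for the 49 results of the 7 genes (7 genes in 7 comparisons). Of these, 1138 kept direction and side of the threshold, and 7 lost the call (all for Ccl9 and diet over both genotypes). Another 15 gained a call with the sign kept, and 93 changed sign. Of those 93, 2 also gained a call: Ccl3 for diet over both genotypes, with the length and GC offset, with and without meKO HFD 2. With 3 libraries a group, a within-group SD of 0.72 for Ccl2 and 0.83 for Ccl7 on the log2 scale limits what can be called. No paired analysis was possible because the labels give no replicate numbers shared between groups.

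Counts of the 7 genes called changed as follows. With library quality weights in limma-voom, 2 passed for genotype on chow and averaged over diets (Ccl3 and Ccl6), 2 for diet in WT (Ccl4 and Ccl6) and 2 for diet over both genotypes (Ccl7 and Ccl9), but that setting called 33.0%, 31.1%, 51.7% and 50.8% of all genes in these comparisons. With only the groups compared, 1 passed for diet in WT (Ccl4), where 16.7% of all genes were called. Leaving out 1 library gave 0 to 1 for genotype on chow and 0 to 1 for diet in WT (Ccl6 without WT chow 3 in both, where 20.6% and 39.9% of all genes were called). For diet over both genotypes it gave 0 to 3. The count was 0 without WT chow 2, WT HFD 3 or meKO chow 3, where 18%, 15.9% and 16.5% of all genes were called. It was 2 without meKO chow 2 (Ccl4 and Ccl9), where 27.4% were called. It was 3 without meKO HFD 1 (Ccl2, Ccl7 and Ccl9), where 35.8% were called. For the same comparison the count was 0 with the length slope as covariate, where 0.267% of all genes were called. It was also 0 without WT chow 1 and 2 together, where 1.64% were called. It was 1 with the length and GC offset, but for Ccl3, lower, where 23.6% of all genes were called. With that offset and without meKO HFD 2 it was 2 (Ccl3 at an adjusted p of 0.0441 and Ccl24, both lower), and 1 for diet in WT (Ccl24, lower). Of all genes, 15.1% and 16.4% were called there.

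Signs changed in these values (log2), and the cause was not tested. With the length slope as covariate, genotype on chow gave Ccl2 -0.76, Ccl24 -0.72, Ccl3 -0.083 and Ccl7 -1.17. Diet in WT gave Ccl2 -0.81, Ccl3 -0.40, Ccl4 -0.11, Ccl6 -0.095 and Ccl7 -0.96, and diet in meKO gave Ccl3 -0.24, Ccl4 -0.027 and Ccl6 -0.10. The interaction gave Ccl3 0.15 and Ccl4 0.086, genotype over diets Ccl2 -0.25, Ccl24 -0.14, Ccl3 -0.0057 and Ccl7 -0.42, and diet over genotypes Ccl2 -0.29, Ccl3 -0.32, Ccl4 -0.070, Ccl6 -0.099 and Ccl7 -0.21. With the length and GC offset, genotype on chow gave Ccl24 -0.14 and Ccl7 -0.23, diet in WT Ccl3 -0.25 and Ccl6 -0.095, diet in meKO Ccl3 -0.32, Ccl4 -0.040 and Ccl6 -0.17, and diet over genotypes Ccl3 -0.28 and Ccl6 -0.13. Without meKO HFD 2 that offset gave Ccl24 -0.14 and Ccl7 -0.23 on chow, Ccl4 -0.12 for genotype on HFD, Ccl3 -0.25 and Ccl6 -0.096 for diet in WT, Ccl3 -0.35, Ccl4 -0.24 and Ccl6 -0.16 for diet in meKO, Ccl24 -0.027 and Ccl7 -0.041 for genotype over diets, and Ccl3 -0.30 and Ccl6 -0.13 for diet over genotypes. An offset for length alone gave Ccl24 -0.14 and Ccl7 -0.17 on chow, Ccl3 -0.15 for diet in WT, Ccl3 -0.27, Ccl4 -0.010 and Ccl6 -0.12 for diet in meKO, Ccl9 -0.0044 for the interaction, and Ccl3 -0.21 and Ccl6 -0.050 for diet over genotypes. Without WT chow 1 and 2 together, genotype on chow gave Ccl2 -0.065, Ccl24 -0.40 and Ccl7 -0.53, and the interaction Ccl3 0.011. Library totals gave Ccl24 -0.010 on chow and Ccl3 -0.020 for diet in meKO, quality weights Ccl3 -0.043 and Ccl6 -0.036 for diet in meKO, and DESeq2 and its size factors in edgeR each Ccl9 -0.0034 for the interaction.

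Leaving out 1 library gave, for genotype on chow, Ccl24 -0.16 to 0.36 and Ccl7 -0.26 to 0.54, and for genotype on HFD Ccl3 -0.069 to 0.34, Ccl4 -0.21 to 0.44 and Ccl6 -0.039 to 0.17. For diet in meKO it gave Ccl24 -0.55 to 0.25, Ccl3 -0.21 to 0.21, Ccl4 -0.12 to 0.67 and Ccl6 -0.061 to 0.11, and for the interaction Ccl2 -0.30 to 0.54, Ccl7 -0.0027 to 0.94 and Ccl9 -0.12 to 0.15. The count of all genes called moved from 3721 to between 33 and 6264 for diet over both genotypes, from 2634 to between 4 and 6384 for diet in WT, and from 10 to between 1 and 4078 for genotype on chow.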
